A study of Arabidopsis thaliana with 16 samples.

Results

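The response of HSFA1b binding to heat was described by comparing the regions that the protein occupied under non-stress (NS) and under heat stress (HS) in Arabidopsis plants that express it from its native promoter. Each peak of the deposited NS and HS lists on chromosomes 1 to 5 was given to the gene whose transcription start site (TSS) was nearest to the peak summit. A gene with a peak only under HS was called gained, with a peak under both conditions kept, and with a peak only under NS lost. Of the 37899 annotated genes on these chromosomes, 1642 had a peak in at least 1 condition, against 16986 when all 4 deposited lists of the study were taken. The gained genes numbered 756 (1.99% of all genes), the kept genes 390 (1.03%) and the lost genes 496 (1.31%). Among the 27444 protein-coding genes, 621 were gained (2.26%), 331 were kept (1.21%) and 409 were lost (1.49%), and these shares are the background for the gene lists below.

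The study made 16 ChIP-seq samples in 8 groups of 2, in which tagged HSFA1b was driven by its native or by the 35S promoter, each line beside control plants. The NP:HSFA1b plants are Col-0 with an added genomic copy of HSFA1b, under its own promoter, fused to eYFP at its end, so that the untagged endogenous gene was also present. They represent 1 transgenic line, chosen for having the least detectable fusion protein, and the 2 samples of a group came from separate plants of 1 heat experiment. Chromatin was precipitated with an antibody against GFP from fully expanded leaves of plants aged 5 weeks grown with 8 h of light and 16 h of darkness. The NS condition was 23 °C with a relative humidity of 60%. The HS condition lasted 30 min, at 37 °C with a relative humidity of 86%. The controls were untransformed Col-0 plants that had the same treatment and the same precipitation. Temperature and humidity changed together, so that their contributions cannot be told apart.

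Heat shock factors are transcription factors that bind heat shock elements (HSEs), alternating inverted repeats of a short GAA unit, and class A1 members such as HSFA1b start the transcriptional response to heat. Their best known targets encode molecular chaperones, which hold or refold proteins that heat has unfolded. Unfolded proteins in the endoplasmic reticulum (ER) are sensed by a separate pathway, the unfolded protein response, in which bZIP factors bind elements named ERSE and UPRE upstream of ER chaperone genes.

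The caller pooled the 2 libraries of each condition, so each peak has 1 value per condition, no difference below has a replicate check and no test was made. Intervals are exact binomial (Clopper-Pearson) or order-statistic intervals at 95% and cover counting error only. Where a count was 0, the largest share given is that of 3 counts in the total. This simpler limit is lower than the upper end of the exact interval. The strength of a peak is given as its fold enrichment (FE). This is the fragment pileup at the summit divided by the caller's background there, with 1 added to each. The lowest background was 10.6 in the NS list, at 248 of 955 peaks, and 3.59 in the HS list, at 650 of 1259 peaks. At those peaks FE depends on the pileup alone. The pools differed in depth, with 6783161 treatment fragments under NS and 2438702 under HS, and 1686242 and 1139036 in the controls. At the lowest background of each list the weakest called peak had an FE of 2.15 under NS and 2.83 under HS. Of the 496 lost genes, 284 (57.3%) had an NS FE under this HS limit, as had 115 of the 390 kept genes. The part of depth in the gained, kept and lost counts was not tested beyond this. When only peaks at or above the HS limit were used in both lists, 808 genes were gained, 273 kept and 214 lost.

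HSEs found close to the summits are shown first because they are the sites at which the bound protein is known to contact DNA. A window reaching 50 bases to each side of each summit was searched on both strands for 3 uninterrupted repeats, nGAAnnTTCnnGAAn or nTTCnnGAAnnTTCn. The lines below give the 6 gained and the 6 kept genes with the highest HS FE among those with such an element, and the only 2 lost genes that had one. The letters are the forward strand of TAIR10 and capitals mark the 3 repeats with their spacers.
Hop3, gained, chr4:7341319-7341347: caagagagTTCTCGAAATTTCgaattttt
AGL67, gained, chr1:29307242-29307270: ccatgctcTTCTAGAATCTTCtccttagg
AT4G05700, gained, chr4:5851102-5851130: cttcagtcTTCTAGAATCTTCtccaagct
AGP15, gained, chr5:3783120-3783148: acctaatcGAAGTTTCTCGAAgccctcaa
GolS1, gained, chr2:19370558-19370586: gaaaccgtGAAAGTTCTGGAAagtgggac
HSP90.1, gained, chr5:21352254-21352282: aacgaaaaGAACTTTCTGGAAttcgtttg
HSFA2, kept, chr2:11135528-11135556: ttagtaacGAAGTTTCTGGAAcattgtct
AT2G27580, kept, chr2:11777564-11777592: ctagcgttGAAGATTCCAGAAgcacctac
SK18, kept, chr1:3355434-3355462: tctcttcaGAATGTTCTAGAAtcagatga
BOB1, kept, chr5:21661424-21661452: cttactacTTCTCGAACCTTCtcgatttg
cpHsc70-2, kept, chr5:20303341-20303369: caaccattTTCTAGAACCTTCcacttctt
AT2G20560, kept, chr2:8849996-8850024: attctgtgGAACGTTCGAGAAatctctga
AT3G11690, lost, chr3:3692580-3692608: ttgtagtcTTCTGGAACTTTCtgaagcta
AT3G53430, lost, chr3:19808998-19809026: agcacaaaGAATCTTCAAGAAatgaagag

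The gained sites belong to Hop3, a co-chaperone that links HSP70 to HSP90, to HSP90.1, to the galactinol synthase GolS1, to AGL67, a MADS-box factor, to the arabinogalactan protein AGP15 and to an RNA gene. Among the kept sites, HSFA2 encodes a heat-inducible factor that sustains the heat response, BOB1 a small HSP-like chaperone, cpHsc70-2 the HSP70 of plastids and AT2G20560 a J protein. AT2G27580 is annotated as an A20/AN1 zinc finger protein and SK18 as an SKP1-like ubiquitin ligase subunit. The centres of these elements lay between 1 and 37 bp from the summit at the gained genes and between 3 and 25 bp at the kept genes. At the lost genes AT3G11690, an uncharacterized protein, and AT3G53430, a ribosomal L11 protein, the element centres lay at -2362 bp and 1508 bp from the TSS (negative values are upstream), with NS FE values of 3.36 and 2.58.

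The HSE of 3 repeats was present at 38 of the 756 gained genes (5.03%, interval 3.58 to 6.83%) and at 23 of the 390 kept genes by their HS peak (5.90%, interval 3.77 to 8.72%). It was present at 2 of the 496 lost genes (0.403%, interval 0.0489 to 1.45%), and in 0.195% of all windows of this length on the 5 chromosomes. The interval of the lost genes therefore lay below those of the gained and the kept genes, whose intervals overlapped. A pair of repeats, which every HSE of 3 repeats also contains, was present at 22.9% of the gained, 19.0% of the kept and 8.27% of the lost genes, and in 7.70% of all windows. By this shorter element the lost summits resembled the genome at large, and the gained summits held it in a share whose interval began at 19.9%.

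The shares of the G-box, the UPRE and the ERSE were also lowest at the lost genes, whereas that of the evening element was not. The G-box CACGTG, which bHLH and bZIP factors bind, was found at 7.41% of gained, 9.23% of kept and 3.83% of lost genes, against 1.11% of all windows. Its interval at the lost genes (2.32 to 5.92%) overlapped that of the gained (5.64 to 9.51%) but not of the kept genes (6.55 to 12.6%). The UPRE, TGACGTGG, was found at 1.98%, 2.82% and 0.403%, against 0.191% of all windows. The UPRE interval of the lost genes (0.0489 to 1.45%) overlapped those of the gained (1.11 to 3.25%) and the kept genes (1.42 to 4.99%). The ERSE, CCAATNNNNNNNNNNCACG, was found at 1.72% and 2.05% of gained and kept genes, against 0.0621% of all windows. It was found at 0 of 496 lost genes, which allows a share of up to 0.605%, or 0.741% by the exact interval. ERSE and UPRE can overlap each other and the G-box, because they share CACG. The evening element AAATATCT, a site of clock factors, was found at 1.46%, 0.769% and 1.61%, close to the 1.20% of all windows. Since 49.7% of gained and 49.5% of kept HS summits lay within 250 bp of a TSS, the same window centred on the TSS of each of the 27444 protein-coding genes was searched as a further background. It held the HSE of 3 repeats in 0.149%, the pair in 6.82%, the G-box in 2.77%, the UPRE in 0.590%, the ERSE in 0.302% and the evening element in 1.80%. A match is a description of the letters, and its use by HSFA1b was not tested.

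**Figure D1:**
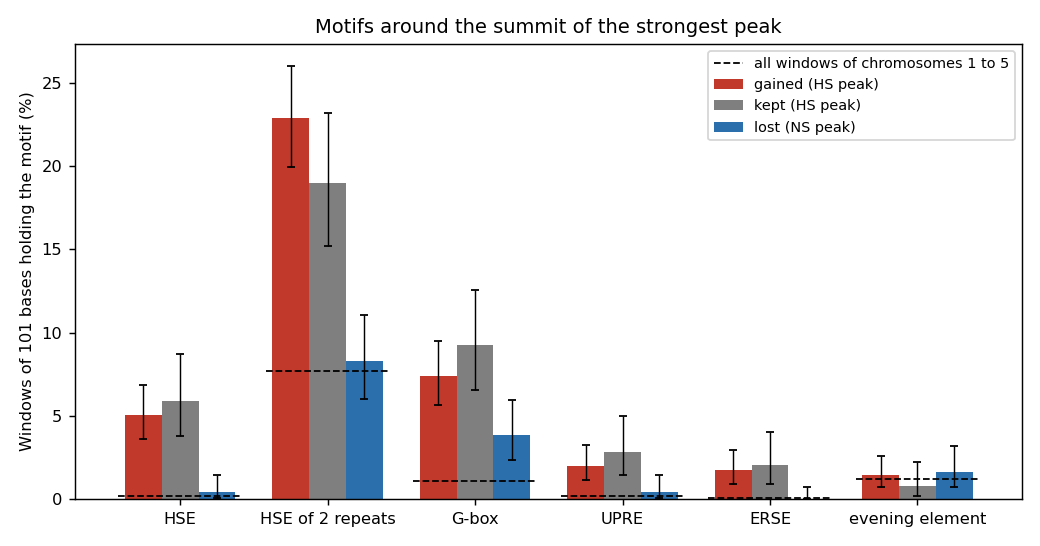
Share (%) of windows of 50 bases on each side of the summit that held each motif at gained, kept and lost genes, with exact 95% binomial intervals and, as dashed lines, the share of all windows of chromosomes 1 to 5. The HSE of 3 repeats was present at 5.03% of gained and 5.90% of kept genes but 0.403% of lost genes, while the evening element stayed near its dashed line in all classes.

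Genes of protein folding were often gained or kept. The 4 lists of cytosolic and organellar chaperones, small heat shock proteins, co-chaperones and ER folding proteins held 94 genes, of which 39 were gained (41.5%), 26 were kept (27.7%) and 1 was lost. The background among protein-coding genes was 2.26%, 1.21% and 1.49%, so that the lost share of 1.06% was near its background. These lists, like the others below, were drawn up with results of these data known and are described without a test. Of the 65 folding genes with an HS peak, 61 (93.8%) had its summit within 250 bp of the TSS, against 49.7% of all 1146 genes with an HS peak. Their median HS FE was 7.41, against 4.58 for all genes with an HS peak. The other lists together held 176 genes, of which 11 were gained (6.25%), 20 kept (11.4%) and 12 lost (6.82%).

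**Figure D2:**
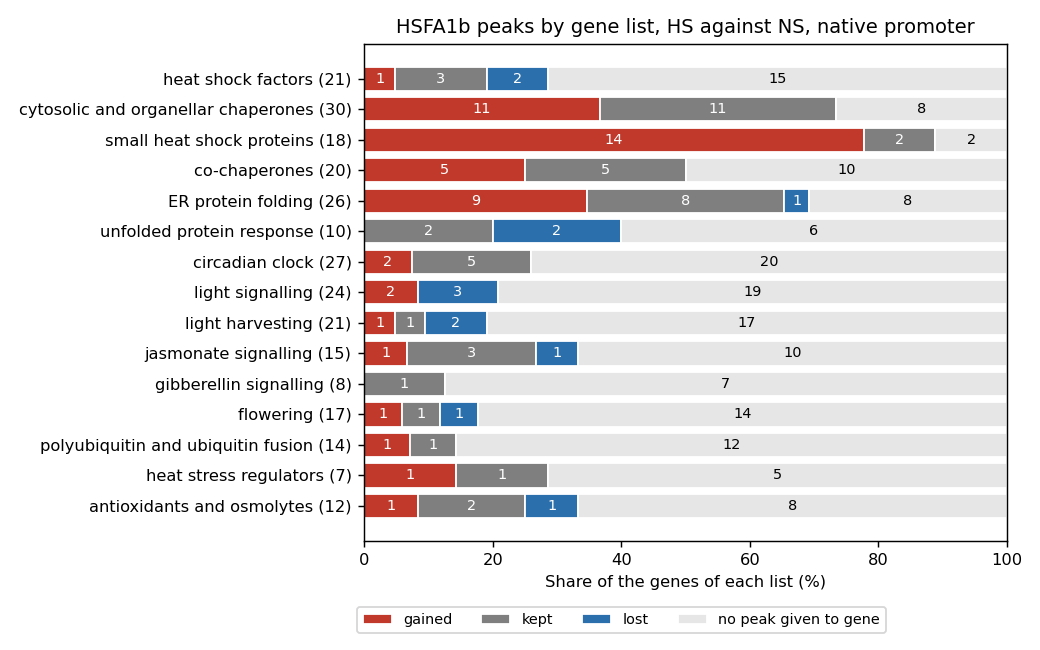
Share (%) of the genes of each of 15 lists that were gained, kept, lost or given no peak, with the number of genes written in each bar and the list size in parentheses. Gained genes fill most of the bar of the small heat shock proteins (14 of 18), and the only lost gene among the folding lists is in the ER list.

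Small heat shock proteins bind unfolding proteins without ATP and are nearly silent in unstressed leaves of many plants. Of their 18 genes, 14 were gained and 2 were kept. All 6 class I genes, whose products are cytosolic, had an HS peak. The class I genes gained were AT2G29500 (HS FE 12.9), AT1G59860 (9.35), HSP17.4 (8.26), AT1G53540 (8.22) and HSP18.2 (7.19). AT1G07400 was kept, with an FE of 3.79 under NS and 9.66 under HS. Among the other classes, HSP17.6A and HSP17.6II of class II had HS FE values of 9.76 and 7.42, the plastid protein HSP21 4.14, the mitochondrial HSP23.6-MITO 5.68 and the ER-located ATHSP22.0 4.26. The remaining gained members were AT2G19310 (8.04), AT1G52560 (5.45), AT5G51440 (4.72) and AT5G37670 (4.58), all annotated as HSP20-like chaperones. The other kept gene, AT1G54050, rose from 3.61 to 15.7, a log2 change of 2.12. All 16 summits lay within 250 bp of the TSS. The HSE of 3 repeats was in 0 of the 16 windows, which allows a share of up to 18.8%, and the pair of repeats was in 7 of 16. HSP18.2 also had an NS summit inside it or within 1000 bp that was nearer to the TSS of another gene, so that its place among the gained genes rests on the assignment.

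The large chaperones were divided between gained and kept genes. Of the 30 listed, 11 were gained and 11 were kept (36.7% each), and none was lost. The list is too short to set this lost count against the background of 1.49%. Among the 6 HSP90 genes, which mature signalling proteins and restrain heat shock factors, the heat-inducible HSP90.1 (HS FE 7.30), the plastid CR88 (6.76) and the mitochondrial Hsp89.1 (4.14) were gained. HSP81-2 and HSP81-3, the cytosolic HSP90 genes transcribed without stress, were kept at 5.18 and 5.86, and at 5.23 and 3.88. The HSP81 genes are near-identical copies, so that reads may be split between them.

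HSP70 chaperones fold proteins with ATP, and 3 of their 13 genes were gained and 6 kept. The gained genes were Hsp70b, HSP70T-2 and Hsp70-15, with HS FE values of 8.96, 8.50 and 8.77. HSC70-1, the constitutive cytosolic form, differed little, with 7.21 under NS and 7.46 under HS, whereas the mitochondrial MTHSC70-2 went from 3.26 to 8.32 and cpHsc70-2 from 4.15 to 9.37. The inducible HSP70 gene AT3G12580 went from 7.43 to 10.2, Hsp70-2 from 3.02 to 5.96 and AT3G09440 from 4.15 to 7.71. The peak given to Hsp70-15 also lay within 1000 bp of its neighbouring copy HSP91. Most summits of this family lay in the 5′ UTR.

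HSP100 proteins pull apart aggregates, and of their 4 genes CLPB3 of plastids (HS FE 6.48) and CLPB4 of mitochondria (7.41) were gained, while HSP101 was kept at 6.28 and 6.68. In the HSP60 group, which forms folding cages in organelles, CPN60A, HSP60 and HSP60-3A were gained at 4.98, 5.82 and 3.92. Their lids CPN20 and CPN10 were kept, at 9.58 and 14.2 for CPN20 and at 7.92 and 9.45 for CPN10. Cpn60beta2, a cage gene outside the list, was also kept.

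Co-chaperones steer the HSP70 and HSP90 cycles, and 5 of 20 were gained and 5 kept. Hop3 had an HS FE of 13.7 and no NS peak, whereas its relative Hop2 was kept at 5.42 and 10.7. The other gained genes were the FK506-binding proteins ROF1 (6.47) and AT5G48570 (6.99) and the BAG proteins BAG6 (8.87) and BAG5 (4.14). The J proteins J2 and J3, partners of HSP70, were kept with little difference, at 4.64 and 5.11 and at 5.77 and 6.54. SGT1A, an HSP90 partner in immune receptor folding, was kept at 3.27 and 5.89, and AT3G12050, an activator of the HSP90 ATPase, at 6.88 and 6.61.

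The ER folding genes included the strongest HS peak of all. Of 26 genes, 9 were gained, 8 were kept and 1 was lost, and the median HS FE over 17 genes was 8.62. SHD, the ER form of HSP90, had the highest FE of all genes under HS, 28.6 against 3.98 under NS. Its summit pileup was 161 fragments under HS and 91 under NS, or 66.0 and 13.4 when scaled to 1000000 fragments of the pool. Calnexin CNX1, a lectin that retains unfolded glycoproteins, went from 7.34 to 22.7, and the ER J proteins ATERDJ3B and ATERDJ3A from 4.39 to 16.2 and from 4.06 to 9.16. The other calnexin gene, AT5G07340, was kept at 2.30 and 4.72, with its NS summit in the 3′ UTR and its HS summit at the TSS. The calreticulins CRT1b and CRT1a went from 3.98 to 11.3 and from 3.81 to 8.31. The oxidase ERO1, which supplies disulfide bonds, went from 3.01 to 6.76. HS values exceeded NS values at all 8 kept ER genes, and their median log2 change was 1.34, against 0.71 for all kept genes.

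Of the gained ER genes, BIP1 and BIP2, the ER HSP70 proteins, had HS FE values of 12.5 and 9.59, and they are near-identical copies between which reads may be split. BIP3, the BiP gene that is induced most by ER stress, had 4.78, and NS peaks covered 9.76% of its length but their summits were nearest to the TSS of another gene. The disulfide isomerases PDIL2-2, PDIL2-3 and PDIL1-1 had 12.3, 5.67 and 5.45. SDF2, a partner in ER quality control, had 6.83, the ER HSP70-like AT4G16660 8.62 and P58IPK, an ER J protein, 3.79. The lost gene, the calreticulin CRT3, had an NS FE of 2.75 at a summit 4236 bp beyond its TSS, downstream of the gene, so that its peak is not comparable in position with the others.

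The summits at the ER genes held other elements than those at the genes of the other folding lists. None of the 17 ER genes had an HSE of 3 repeats or a pair of repeats in the window, which allows a share of up to 17.6% for each. An ERSE was present at 9 of them (52.9%), a UPRE at 4 (23.5%) and either element at 10 (58.8%). Among the 48 genes of the remaining folding lists with an HS peak, 5 had an HSE of 3 repeats, 25 (52.1%) had a pair of repeats, 1 had a UPRE and 0 had an ERSE, which allows up to 6.25%. Among all 1146 genes with an HS peak, 3.66% had an ERSE or a UPRE and 21.6% the pair of repeats. The elements of 6 ER genes are given for their place under the summits, with the ERSE or UPRE in capitals.
SHD, UPRE, chr4:12556087-12556114: gttttgttctTGACGTGGagcgacgtgg
SHD, ERSE on the reverse strand, chr4:12556057-12556085: agccaCGTGGTAGTTTTGTATTGGagcaa
CNX1, ERSE, chr5:24829856-24829884: gctaaCCAATCATAACAGGCCACGtcatt
BIP1, UPRE, chr5:10543419-10543446: tcatcagagaTGACGTGGaccaattatc
BIP3, ERSE, chr1:2931923-2931951: cctctCCAATCACTTCTTGACACGtaagc
PDIL2-2, ERSE, chr1:1416213-1416241: acgcaCCAATGATATTGTCACACGtcagc
CRT1a, ERSE, chr1:21092754-21092782: gttaaCCAATTAGTTAAATACACGccaga
Over the 10 ER genes that held an ERSE or a UPRE, the centres of the elements lay between 10 and 33 bp from the HS summit. At SHD the ERSE and the UPRE stood side by side upstream of the TSS, with the summit between them. The 35S lists were also compared at these genes. A summit of the 35S NS list with FE of at least 2 lay within 200 bp of the HS summit at 3 of the 17 ER genes, at 7 of the 16 small heat shock proteins, at 19 of the 22 cytosolic and organellar chaperones and at 9 of the 10 co-chaperones, against 399 of all 1146 genes with an HS peak. For the 35S HS list the counts were lower, at 0, 0, 6 and 3 in the same order, against 163 of all 1146 genes. The 35S HS pool was also shallower, with 13481546 treatment fragments and 13262 peaks, against 19579327 and 19640 in the 35S NS pool. The FE limit of 2 lay above the median FE of both lists, 1.54 under NS and 1.61 under HS. The 35S line carried another tag, RFP, and was precipitated with another antibody. The part of depth in these counts was not tested.

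Of 10 sensors and transcription factors of the unfolded protein response itself, 2 were kept, 2 were lost and none was gained, a list too short to set its gained count against the background of 2.26%. BZIP28 and BZIP60, the membrane-bound and the spliced bZIP factor of the response, were kept at 3.87 and 5.23 and at 3.10 and 2.99. The BZIP60 summit lay in the 3′ UTR. NAC062 and NAC089, membrane-tethered NAC factors, were lost, with NS FE values of 2.41 and 2.32, both under the HS limit of 2.83. An HS summit lay in or within 1000 bp of NAC062 but was nearer to the TSS of another gene.

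Among the 21 heat shock factor genes, 1 was gained, 3 were kept and 2 were lost. HSFA2 was kept and had the strongest peaks, 7.92 under NS and 15.5 under HS, with summits at -54 and -76 bp from the TSS. HSFA7A was kept at 2.84 and 5.45 and the repressor HSFB2b at 5.59 and 8.34. HSFA4A was gained at 5.30. HSFA1b itself, named HSF3 in the reference, had an NS peak of 2.24 in its 5′ UTR and none under HS. This value is below the HS limit of 2.83, and fragments there can come from the transgene as well as from the endogenous copy. The repressor HSFB1, named HSF4, had an NS peak of 2.67 in an intron, and HS peaks covered 17.7% of its length but were nearest to the TSS of another gene. HS summits of 3.99 and 4.14 lay in or within 1000 bp of HSFB2A and HSFC1, and NS summits of 2.58 and 3.10 in or near HSFA3 and HSFA8, all nearer to the TSS of a neighbour.

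Over the 15 lists, 20 of the 161 listed genes without a peak of their own had a summit inside them or within 1000 bp that the rule gave to a neighbour. They included MBF1C, a heat-induced coactivator with FE of 3.51 under NS and 6.02 under HS, Fes1A, an HSP70 partner with 2.97 and 8.45, and the plastid cpHsc70-1 with 4.36 under HS. By summits inside the gene or within 1000 bp, GolS1, UBQ11, PIL6 and AT5G64170, which the rule called gained, had a summit in both conditions. Of the DREB2 regulators of drought and heat, DREB2A was kept at 3.45 and 6.81 and DREB2C was gained at 3.92. Ascorbate peroxidase APX1 was kept at 3.58 and 5.66. The galactinol synthase GolS2, which makes a precursor of protective raffinose sugars, was kept at 3.61 and 5.23, and GolS1 was gained at 7.52.

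Clock and light genes were mixed. Of 27 clock genes, 2 were gained (7.41%), 5 were kept (18.5%) and none was lost, against backgrounds of 2.26%, 1.21% and 1.49%. The list is too short to set its lost count against that background. TIC, a clock regulator, went from 2.63 to 10.2, the morning repressor PRR7 from 2.45 to 5.89 and GI, an evening gene, from 3.98 to 7.19, while PRR9 was lower, at 5.08 and 4.36. The GI summits lay at -2128 and -2137 bp from its TSS. The MYB-like gene AT1G18330 was kept at 3.54 and 4.88, while AT5G64170 was gained at 4.58 and RVE1 was gained at 3.92 from a summit at -3167 bp. Only 3 of these 7 HS summits lay within 250 bp of the TSS, unlike at the folding genes. Among photoreceptor genes the blue light receptors CRY1, CRY2 and PHOT1 were lost, with NS FE values of 2.67, 2.65 and 2.50, all under the HS limit of 2.83. The bHLH gene PIL6 and the bZIP gene GBF3 were gained at 3.71 and 4.36.

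Light harvesting and hormone genes were found in all classes. LHB1B1, which encodes a chlorophyll-binding protein of photosystem II, was the gained gene with the highest HS FE, 15.3, at a summit upstream of the TSS that also lay within 1000 bp of its copy LHB1B2. CAB1 and LHCA2 were lost, with NS FE values of 2.19 and 2.22 in the 3′ UTR. LHCB4.2 was kept at 1.85 and 3.46, but the NS summit was in the 3′ UTR and the HS summit upstream. Of the jasmonate genes, the repressors JAZ1 and TIFY7 were kept at 4.22 and 4.80 and at 3.06 and 3.39, JAZ3 was gained at 3.61 and TIFY10B was lost at 2.32. MYC2, the activator that JAZ proteins restrain, was kept at 2.90 and 7.08. The DELLA repressor RGL3 was kept at 4.50 and 8.07, with both summits in the coding exon. Among the flowering genes AT5G62430 was gained at 5.77, TOE2 was kept at 3.37 and 3.20 and RAP2.7 was lost at 3.69. UBQ10, a polyubiquitin gene, was kept at 2.01 and 3.44, UBQ11 was gained at 3.99 and the catalase gene CAT1 was lost at 2.01.

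Classes drawn from the gene descriptions covered a wider set of genes. Of 291 genes whose description named heat shock, a chaperone or a J protein, which includes heat shock factors, 37 were gained (12.7%, interval 9.11 to 17.1%), 28 were kept (9.62%, interval 6.49 to 13.6%) and 7 were lost (2.41%, interval 0.972 to 4.89%). The last interval included the protein-coding background of 1.49%. The 7 genes were HSF3, HSF4, J8, AT1G16680, AT1G56300, AT1G72416 and AT5G14710. None of them is in the folding lists, so the single lost gene of those lists depends on their membership. Of 1212 transcription factors, 1.90% were gained, 2.31% kept and 1.65% lost. Protein kinases were gained in 2.23%, kept in 1.01% and lost in 1.66% of 1388 genes. Of 386 ribosomal protein genes 3 were gained (0.777%), 3 kept (0.777%) and 2 lost (0.518%). The background was 2.26%, 1.21% and 1.49% of protein-coding genes. Of 37 ethylene response factors 5 were lost (13.5%, interval 4.54 to 28.8%), 2 gained and 2 kept (5.41% each). Of 72 WRKY factors 5 were kept (6.94%, interval 2.29 to 15.5%), 3 gained and 3 lost (4.17% each). Both families were picked from 9 name families and 12 description classes, and the intervals do not allow for that choice.

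The gained genes with the highest HS FE after LHB1B1 were not all chaperones. They were AT1G68300, an adenine nucleotide hydrolase-like protein (13.7), Hop3 (13.7), AT1G27350, a RAMP4 protein of the ER translocon (13.3), CYP78A7, a cytochrome P450 (13.3), UTR1, a transporter of UDP-glucose and UDP-galactose (13.3), AT1G55530, a RING protein (13.1), and AT2G29500 (12.9). Of these 8 genes, none had an NS peak within 1000 bp of the HS summit. All but CYP78A7, whose summit was in the coding exon 586 bp beyond the TSS, had a summit within 250 bp of the TSS.

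The lost genes were weaker as a class. Their median NS FE was 2.68 (interval 2.65 to 2.77), against 3.36 (3.26 to 3.53) at the kept genes under NS. The highest value was 7.81 at PBS1, a kinase cleaved by a bacterial effector and guarded by an immune receptor, with its summit in the 5′ UTR. The next were ATCTH, a zinc finger protein (6.37), the germin-like GLP4 (5.67), AT5G01380, a homeodomain-like protein (5.59), and OLI2, a ribosome assembly protein (5.57). NAC011 had 5.56, the beta-glucosidase BGLU31 5.51 and AT3G28540, an ATPase, 5.50. All 8 were above the HS limit of 2.83. AT5G01380 alone of these had an HS peak within 1000 bp of the summit, given to another gene. The summits given to ATCTH, AT5G01380 and BGLU31 lay downstream of the gene, 2035, 2549 and 4408 bp beyond the TSS. That of GLP4 lay at -1169 bp. The BGLU31 peak was 4217 bp wide and covered 0% of BGLU31. It ran over the neighbouring gene DMR6 and is part of the DMR6 coverage given below. Over the whole class 25 of 496 lost genes and 34 of 756 gained genes had a peak of the other condition within 1000 bp of the summit.

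At the 390 kept genes FE was higher under HS at 354 (90.8%), and the median log2 change was 0.71 (interval 0.62 to 0.81). Of these genes, 115 had an NS FE under the HS limit of 2.83. At the lowest HS background these could be kept only with a higher HS FE, so the calling set part of this share. With the HS limit in both lists the median was 0.58 over 273 genes. By scaled pileup the median log2 change was 0.37, and 304 genes (77.9%) were higher. The NS and HS peaks overlapped at 362 genes, and their summits lay a median of 35 bp apart. The 26 kept folding genes had a median log2 change of 0.98 by FE and 1.09 by pileup. Choosing genes by a high NS FE, without regard to the HS list, gave a lower value. A choice of high NS values lowers the ratio of HS to NS by itself. The effect of leaving out the HS list therefore cannot be told apart from it. Of the 181 genes with an NS FE of at least 4, 136 (75.1%) had an HS peak, and with the others placed lowest the median log2 change was 0.18.

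The largest rise after SHD (log2 change 2.85) was at AT1G36060, a DREB-type factor, from 1.69 to 11.6. AT5G61970, an SRP-like protein, went from 4.16 to 27.0, THH1 from 3.37 to 19.2, AT2G22426 from 2.23 to 11.6 and WRKY22, a defence-related factor, from 2.84 to 12.6. By scaled pileup these genes differed from one another. SHD changed by 2.30 and WRKY22 by 1.43 on the log2 scale, but AT1G36060 by 0.68, AT5G61970 by 0.48, THH1 by 0.14 and AT2G22426 by 0.05. At the last 4 genes the FE rose far more than the scaled pileup did, so that most of their rise came from the local background in the ratio.

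Among the kept genes the largest falls in FE were smaller than the largest rises. A kept gene needs a peak in both conditions, so falls to no HS peak and rises from no NS peak were left out. The ranking therefore cannot compare falls with rises in general. J11, a plastid J protein, went from 6.16 to 3.15, a log2 change of -0.97, and its NS peaks covered 74.3% of the gene. The tRNA gene AT2G47740 changed by -0.74, AT1G21920, a SET7/9-like protein, by -0.71, the malate dehydrogenase PMDH1 by -0.70, FLA18 by -0.65 and AT4G24410 by -0.65. By scaled pileup J11, AT1G21920 and FLA18 were also lower, at -0.51, -0.55 and -0.36, while AT2G47740, PMDH1 and AT4G24410 were higher, at 0.48, 0.15 and 0.15.

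**Figure D3:**
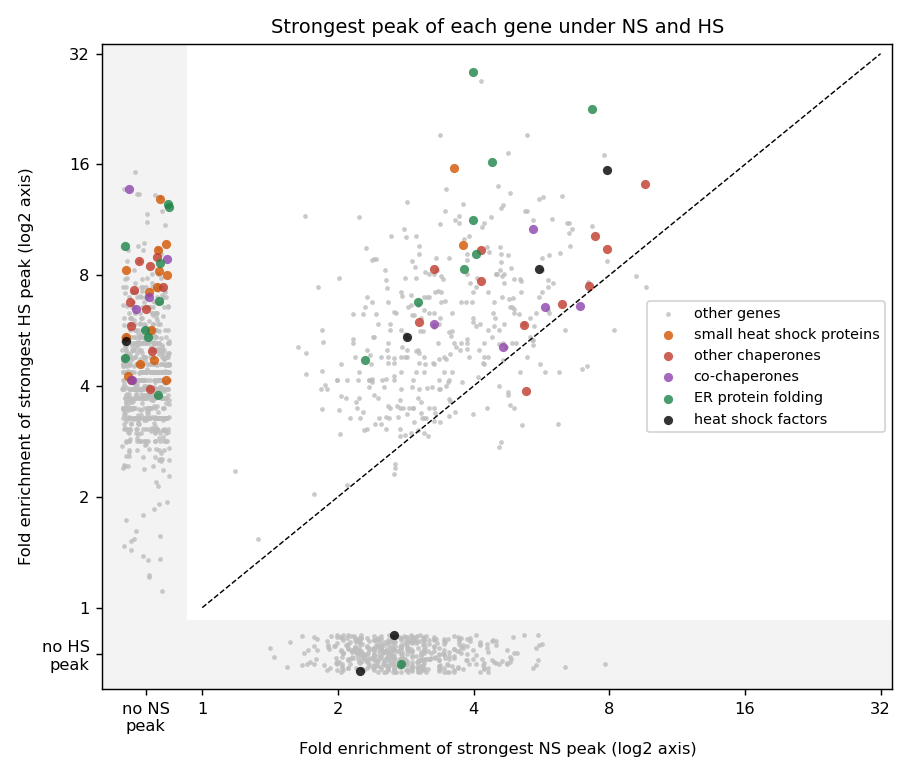
Fold enrichment of the strongest NS peak (x) and HS peak (y) of each of the 1642 genes on log2 axes, with genes that had a peak in 1 condition spread over the grey bands and a dashed line of equal values. Of 390 kept genes 354 lie above the line and SHD is highest at 28.6. The band without an HS peak holds only 1 gene of the folding lists.

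Position relative to the gene also separated the lost genes. The strongest peak had its summit within 250 bp of the TSS at 376 gained genes (49.7%, interval 46.1 to 53.4%), at 193 kept genes by the HS peak (49.5%, interval 44.4 to 54.6%) and at 20.4% of the lost genes (interval 16.9 to 24.2%). By the NS peak the kept genes gave 45.6%, so that the lost genes also differed from kept genes measured in the same pool. The median distance from the TSS was 253.5 bp at gained, 254.5 bp at kept and 861.5 bp at lost genes. With only peaks of FE of at least 3, 30.8% of the 172 remaining lost genes were within 250 bp.

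Summits in the 5′ UTR made up 25% of the gained, 21.3% of the kept and 5.85% of the lost genes. Summits in a coding exon made up 11.0%, 14.1% and 22.8%, those in a 3′ UTR 1.85%, 2.56% and 7.66%, and those downstream of the gene 7.67%, 7.18% and 17.5%. The lost summits thus lay more often in coding exons, in the 3′ UTR and beyond the end of genes, and less often in the 5′ UTR. A 35S NS summit of FE of at least 2 lay within 200 bp of the summit at 29.4% of gained, 45.4% of kept and 14.3% of lost genes. For a 35S HS summit the shares were 12.4%, 17.7% and 4.84%, from the shallower 35S pool.

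**Figure D4:**
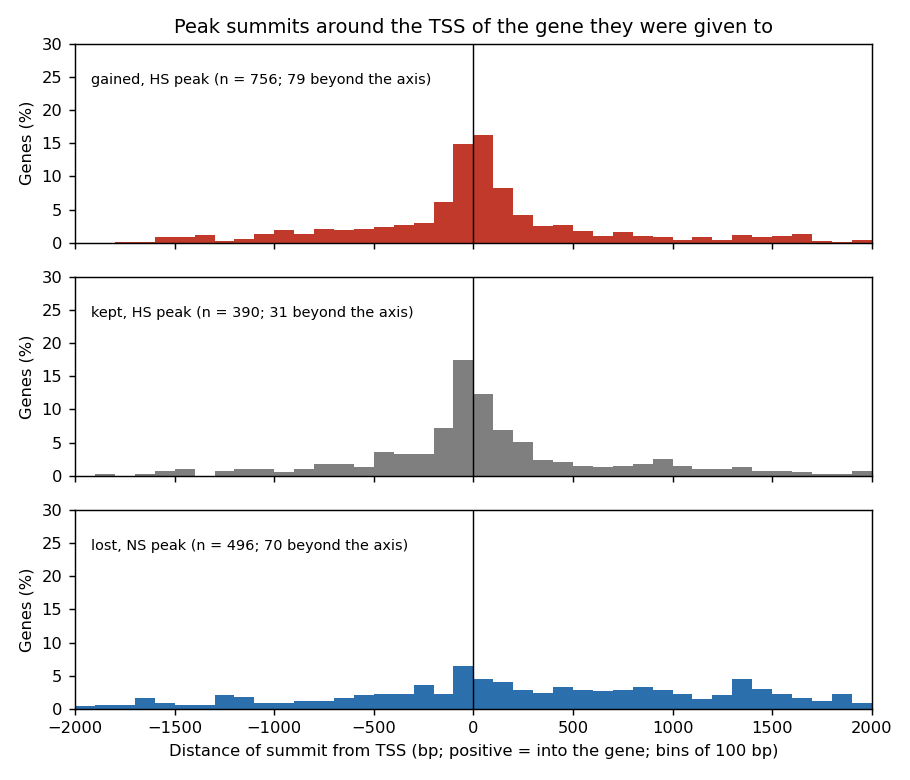
Distance of the strongest summit from the TSS (bp, positive into the gene, bins of 100 bp) as a share (%) of the gained, kept and lost genes. Gained and kept summits gather at the TSS (49.7% and 49.5% within 250 bp), and lost summits do so less often (20.4%).

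Some peaks ran along most of a gene, and the genes concerned differed between NS and HS. Among the 1439 genes with a peak and a length of at least 500 bp, 91 had at least 50% of their length under NS peaks and 57 under HS peaks, and 18 of these were shared. In the study, wide peaks across strongly transcribed genes were treated as false positives, and they were kept here. Of the 57 genes under HS, 17 were genes of the folding lists, against none of the 91 under NS. J8 and J11, J proteins outside those lists, were covered over 73.7% and 74.3% under NS. Under HS their values were 0% and 13.9%. Transcription was not measured in these libraries, and its part in this coverage was not tested.

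Of these genes, 26 were covered to at least 50% under HS and to less than 10% under NS, and 14 of them were folding genes. The small heat shock protein genes HSP17.4, HSP17.6II and AT5G51440 were covered over 100% of their length, HSP90.1 over 91.9%, Hsp70b over 90.5%, BIP2 over 79.7%, HSP101 over 63.6% and BIP1 over 52.8%. HSP101 had been covered over 8.42% and HSP70 over 6.06% under NS, against 54.7% under HS for HSP70. The remaining genes included AGP1, an arabinogalactan protein (87.2%), CML37, a calmodulin-like protein (68.7%), SRO5 (50.8%) and the dehydrin ERD10 (50.2%), all with 0% under NS.

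In the reverse direction 47 genes were covered to at least 50% under NS and to less than 10% under HS, none of them a folding gene of the lists. They included DMR6, an oxygenase required for susceptibility to downy mildew (92.6%), RAV1 and RAV2, AP2/B3 factors (92.0% and 75%), GATA1 (89.6%), CYP83B1 of glucosinolate synthesis (81.4%) and the circadian gene CCL (78.9%). GRP7, a clock-controlled RNA-binding protein, was covered over 67.8%, the bHLH factor HBI1 over 65.0%, ERF2 over 59.0% and ZAR1, an immune receptor, over 55.1%. Also covered were the syntaxin SYP122 (52.3%), the Calvin cycle regulator CP12-2 (51.3%) and DYL1 (50.4%), a dormancy-associated gene. All of these had 0% under HS peaks.

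**Figure D5:**
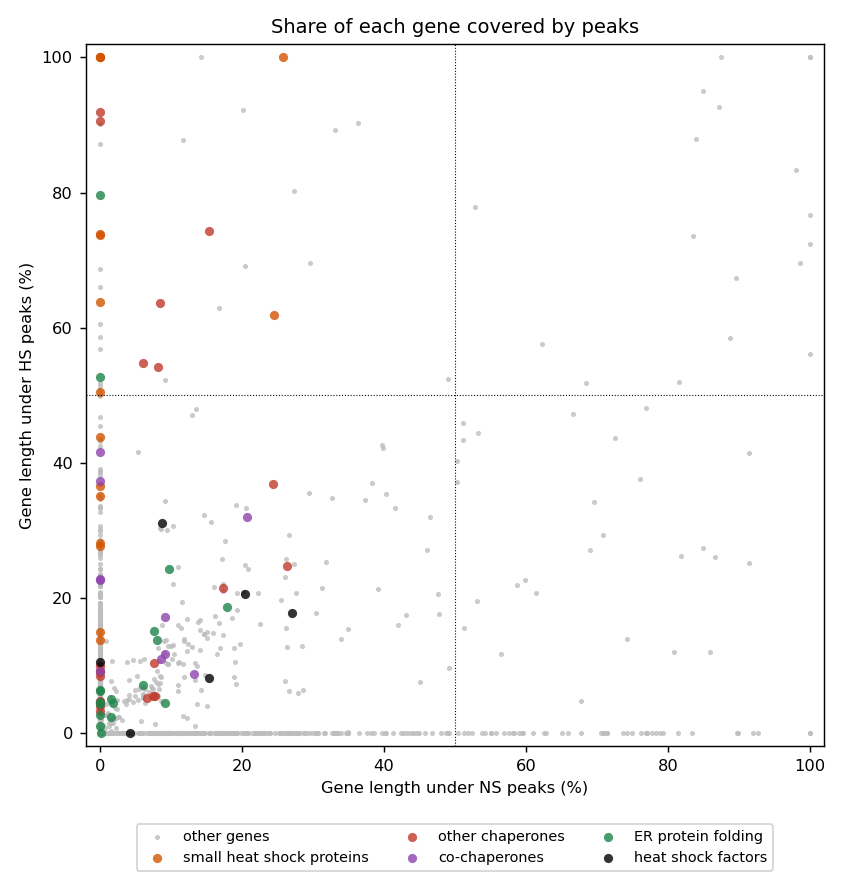
Share of gene length (%) under NS peaks (x) and HS peaks (y) for the 1439 genes of at least 500 bp that had a peak, with dotted lines at 50% and the folding and heat shock factor lists in colour. Coloured points lie along the left edge up to 100%, and no gene of the folding lists lies to the right of the vertical line.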

How the data were processed

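Leaf chromatin of 4 NP:HSFA1b samples and their 4 controls was compared. The authors aligned reads to TAIR10 with GSNAP (1 mismatch), removed duplicates with SAMtools and called peaks with MACS2, which per the file headers was version 2.0.10.20131028 with paired ends and a q-value limit of 0.05, and pooled the 2 libraries of each condition. The deposited values are the pileup (coverage signal in fragments), the fold enrichment (a ratio to the caller's background) and the −log10 q-value at each summit. The deposited narrowPeak lists held the same peaks, with a largest difference of 0.

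Here all deposited peaks on chromosomes 1 to 5 were used with RefSeq genes of TAIR10.1 (the same nuclear assembly), in Python 3.11.15 with pandas, numpy and scipy. Where a gene had several peaks, the one with the highest fold enrichment was used. The assignment was checked on simulated peaks. Genes named in the text are members of 15 lists (270 loci), the 8 strongest gained and lost genes, the 6 kept genes with the largest and the smallest change, genes with at least 50% of their length covered in 1 condition and under 10% in the other, and genes of the printed elements. Members and lists were chosen with earlier results of these data known. Alternatives covered thresholds, peak width, gene assignment and motif settings.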

Additional observations from a re-analysis of the deposited data

Results flagged for a closer look

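On the mitochondrial genome, outside the chromosomes compared above, 17 peaks were called under NS, with FE of 1.53 to 2.24. Under HS, and in both 35S lists, the number was 0. These peaks drew attention because they lie in data that the comparison did not use.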

How the results depend on the processing

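No paired analysis was possible because the libraries of each condition were pooled by the authors, and leaving out a replicate could not be run for the same reason. Of 113 other values that answer a comparison 73 stayed within their interval or within 1.5 times. The cause of the shifts below was not tested except where the setting itself moves the value. An FE of at least 3 gave 246 kept and 172 lost genes, summits within 1000 bp of the TSS gave 297 lost genes, and the HS limit, an alternative added after the data were seen, gave 214. The median log2 change at kept genes was 0.37 by scaled pileup, 0.56 with FE of at least 3, 0.58 with the HS limit and 0.18 from NS genes with FE of at least 4 (the last 2 added later). The TSS-proximal shares of gained, kept and lost genes were 62.7%, 63.6% and 33.7% within 500 bp. With protein-coding TSSs they were 45.1% for gained and 15.9% for lost genes, and with FE of at least 3 30.8% for lost genes. The HSE shares of gained, kept and lost genes were 21.8%, 18.7% and 4.84% with 1 mismatch and 22.9%, 19.0% and 8.27% with 2 repeats, and in windows of 1 such length on each side 7.28% and 10% for gained and kept genes. Genes covered numbered 199 under NS and 146 under HS at 25% of their length, and 40 and 24 at 75%. A 35S NS summit was near 33.3%, 51.3% and 20.4% of gained, kept and lost genes within 500 bp, and 52.2%, 57.9% and 25.8% with all 35S peaks. A 35S HS summit was near 7.86% of lost genes within 500 bp, and 27.9%, 34.4% and 17.5% of the classes with all 35S peaks. In every setting tried for these shares the lost genes stayed lowest. The folding genes, pooled later, numbered 35 to 40 gained and 24 to 27 kept in all settings, and the lost gene became 3 without peaks wider than 1000 bp and 0 with FE of at least 3, within 1000 bp of the TSS or with the HS limit. Of 225 counts in single lists 49 changed by more than 1.5 times or to or from 0, most of them by 1 or 2 genes. The HS pool held 0.36 times the NS fragments, and the part of depth in these counts was not tested by equal sampling of the libraries.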
